A study of Mus musculus with 12 samples.

Results

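The 10 genes described here make, conjugate, carry and sense bile acids. They were the genes named Cyp7a1, Cyp8b1, Cyp27a1, Cyp7b1, Slc27a5, Baat, Slc10a1, Abcb11, Nr1h4 and Nr0b2 in a liver RNA sequencing table of 49584 mouse genes. All 10 were found, 1 entry each, and all 10 were among the 12434 genes that reached 1 FPKM in at least 3 of the 12 libraries and were tested. FPKM is the number of fragments per kilobase of transcript, scaled to library size, so levels can be compared between genes of different length. There were 4 groups of 3 libraries: Tert-/- mice given ENU, Tert-/- mice given saline, wild-type (WT) mice given ENU and WT mice given saline. ENU (N-ethyl-N-nitrosourea) is an alkylating mutagen, injected into the peritoneum at 150 µg per g body weight, and all livers were collected 24 h after the injection. The Tert-/- mice lacked Tert, the catalytic subunit of telomerase, and were of generation G1. All mice were on a mixed background labelled C57BL/6/129/SvJ and were age-matched; no source used here gives their age. No label ties a library to an animal of its own, so the p-values measure the spread between these libraries.

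Bile acids are made from cholesterol in hepatocytes by a classic route that starts with Cyp7a1 and an alternative route that starts with Cyp27a1. They are joined to taurine or glycine, pumped into bile, reabsorbed in the ileum and taken up again from portal blood. The nuclear receptor FXR, encoded by Nr1h4, senses them in liver and induces Nr0b2, whose product SHP is a repressor of Cyp7a1 and Cyp8b1. Cyp7a1 is also known for a strong daily rhythm in rodents.

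Each library held between 30053822 and 43680374 reads in genes, and a bile acid gene had between 633 and 54461 reads per library, so the spread between libraries rather than counting set the errors. Tert itself was at 1.11 to 1.62 FPKM in Tert-/- ENU livers, 0.304 to 0.734 FPKM in Tert-/- saline livers, 4.70 to 6.23 FPKM in WT ENU livers and 1.61 to 3.22 FPKM in WT saline livers. Within each treatment the genotypes did not overlap for Tert. Tert-/- saline replicate 2 stood apart: 17486 genes were above 0 there, against 19576 to 20310 in the other libraries. There, 29.53% of reads fell in the top 20 genes, against 17.36% to 21.69% in the rest. Its median-ratio factor was 0.647, against 0.988 to 1.116. Hepatocyte markers were all detected (10 of 10 listed), and their summed level was 44964 to 65781 FPKM in Tert-/- ENU livers, 65316 to 118686 in Tert-/- saline livers, 47150 to 65632 in WT ENU livers and 64659 to 82805 in WT saline livers. Alb, at 26585 to 65864 FPKM, made up most of that sum. The highest sum was Tert-/- saline replicate 2, where Alb, Apoa1, Apoa2, Ttr, Trf and Serpina1a were at their highest and Apob, Cps1 and Tat at their lowest. Apob was at 554 to 721 FPKM after ENU and 237 to 663 FPKM after saline. The summed level of 8 Kupffer cell and macrophage markers was 113 to 141 FPKM, 130 to 308 FPKM, 130 to 351 FPKM and 245 to 446 FPKM in the same 4 groups. That of 8 sinusoidal endothelial markers was 64.3 to 70.5 FPKM, 81.5 to 97.8 FPKM, 67.1 to 107 FPKM and 115 to 147 FPKM. For 8 cholangiocyte markers it was 41.0 to 54.5 FPKM, 35.3 to 55.7 FPKM, 47.2 to 54.4 FPKM and 57.5 to 74.6 FPKM. For 5 erythroid markers it was 105 to 124 FPKM, 187 to 837 FPKM, 127 to 143 FPKM and 213 to 411 FPKM. The erythroid sum joined Alas2, at 72.6 to 109 FPKM after ENU and 71.9 to 91.3 FPKM after saline, with globin genes that were lower after ENU. Hbb-bs was at 10.5 to 33.1 FPKM after ENU and 72.5 to 437 FPKM after saline, and Hba-a1 at 3.53 to 10.2 FPKM and 30.4 to 244 FPKM. Pericentral hepatocyte markers (8) summed to 5215 to 6347 FPKM, 5278 to 7050 FPKM, 5145 to 5604 FPKM and 5773 to 6618 FPKM, and periportal ones (8) to 2180 to 3319 FPKM, 2355 to 3174 FPKM, 2179 to 3111 FPKM and 2666 to 3398 FPKM. Of 5 listed ileal enterocyte markers, Fabp6 was at 0 in all 12 libraries, and Vil1 and Lct did not exceed 0.334 and 0.0136 FPKM. Fabp2 was at 22.1 to 48.7 FPKM and Slc10a2 at 3.92 to 14.8 FPKM. The part of these differences in the results on bile acid genes was not tested, and in whole liver fewer cells of a type and less RNA per cell cannot be told apart.

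The bile acid genes spanned more than an order of magnitude in FPKM. Slc27a5 had the highest level in every library (611 to 1015 FPKM), Cyp27a1 the next (259 to 587 FPKM) and Slc10a1 the third highest mean in each group (167 to 383 FPKM over the libraries). Baat, Abcb11, Cyp7b1 and Cyp8b1 followed with means over the 12 libraries of 141, 134, 94.6 and 84.3 FPKM, and Nr1h4, Cyp7a1 and Nr0b2 with 68.8, 46.9 and 37.5 FPKM. The ranges of neighbours among these last 7 overlapped, so their order did not stand clear of the spread. The spread between libraries of 1 group also differed widely. Cyp7a1 had a within-group SD of 1.07 on the log2(FPKM + 1) scale, more than 99.6% of the tested genes, and Nr0b2 had 0.74, more than 97.8%. Cyp8b1 (0.53) and Cyp7b1 (0.48) were also above the median of all tested genes, which was 0.29. Abcb11 (0.33) and Nr1h4 (0.32) lay near it. Slc27a5 (0.17), Baat (0.16), Cyp27a1 (0.14) and Slc10a1 (0.12) were steadier than most genes. A difference of a given size was therefore easier to detect in Slc10a1 than in Cyp7a1.

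**Figure D1:**
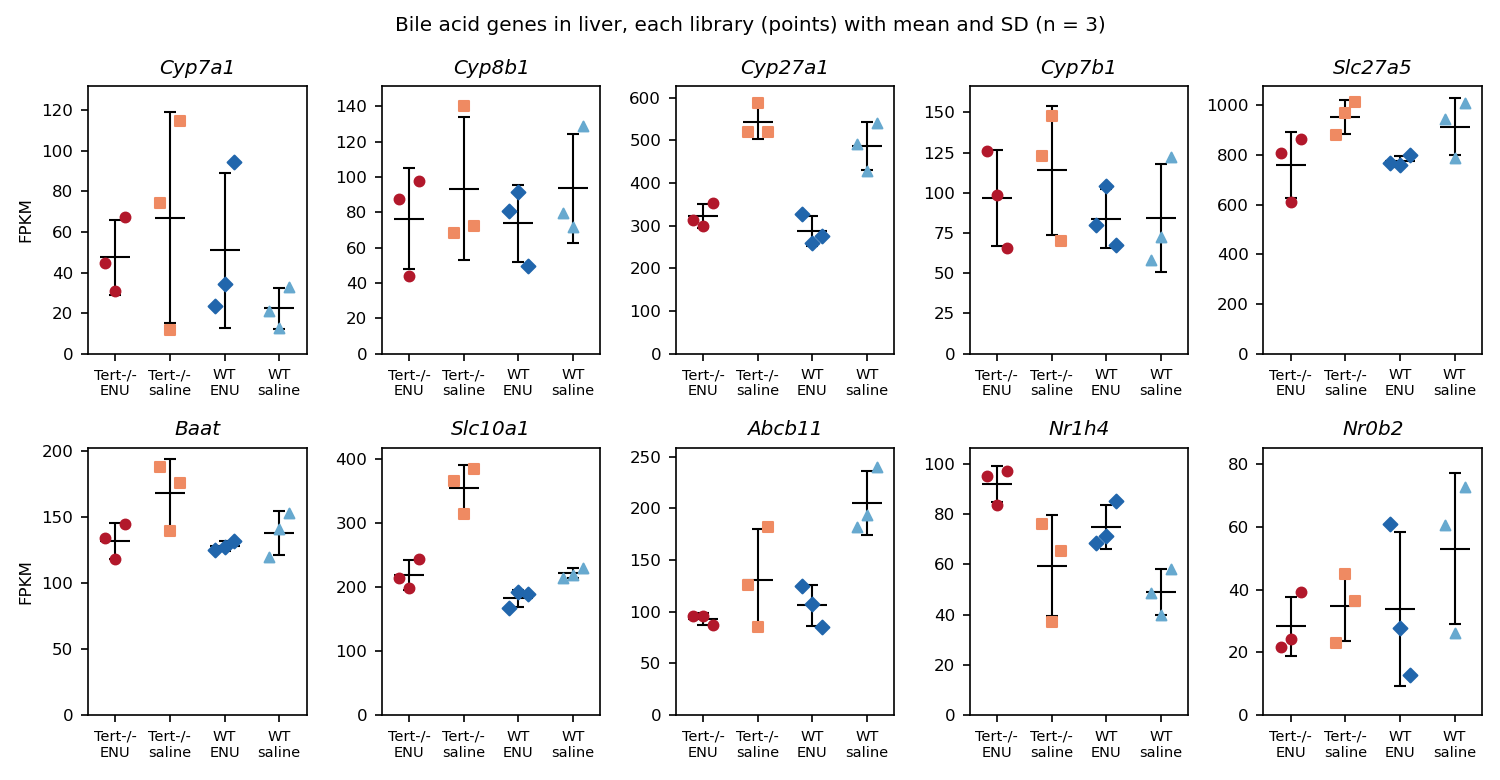
FPKM of each bile acid gene in each library, by group, with a vertical axis that starts at 0; points are libraries in the order of their replicate numbers, the horizontal bar is the mean and the vertical bar the SD (n = 3). Cyp27a1 lay at 259 to 353 FPKM in the ENU libraries and at 429 to 587 FPKM in the saline libraries, while Cyp7a1 spread from 11.8 to 115 FPKM within Tert-/- saline livers.

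Promoters are shown for the 2 genes that passed a test in a single comparison, Cyp27a1 and Slc10a1, and for the 2 that held a searched motif, Cyp8b1 and Nr0b2. Each sequence is the 250 bases before the start annotated by RefSeq on GRCm38.p6, read 5′ to 3′ on the gene's strand, and capitals mark a motif match. RefSeq windows were at hand for 6 of the 10 genes; Cyp7a1, Cyp7b1, Baat and Slc27a5 had no entry. For Slc10a1, which had entries for several starts, the window next to the annotated gene is given.
Cyp27a1 (chr1:74713285-74713534, plus strand): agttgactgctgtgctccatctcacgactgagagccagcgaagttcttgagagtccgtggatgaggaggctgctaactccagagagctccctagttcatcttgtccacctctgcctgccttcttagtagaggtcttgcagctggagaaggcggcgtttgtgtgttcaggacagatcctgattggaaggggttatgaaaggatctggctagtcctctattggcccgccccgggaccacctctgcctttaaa
Slc10a1 (chr12:80968080-80968329, minus strand): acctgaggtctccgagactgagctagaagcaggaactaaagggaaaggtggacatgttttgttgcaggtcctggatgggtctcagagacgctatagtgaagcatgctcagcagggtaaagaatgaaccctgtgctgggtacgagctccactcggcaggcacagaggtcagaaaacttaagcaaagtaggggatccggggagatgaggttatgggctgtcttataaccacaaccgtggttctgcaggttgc
Cyp8b1 (chr9:121916306-121916555, minus strand): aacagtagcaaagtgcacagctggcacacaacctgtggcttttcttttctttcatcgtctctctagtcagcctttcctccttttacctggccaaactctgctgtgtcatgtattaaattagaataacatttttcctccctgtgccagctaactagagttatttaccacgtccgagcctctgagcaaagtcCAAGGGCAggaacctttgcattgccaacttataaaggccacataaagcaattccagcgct
Nr0b2 (chr4:133553126-133553375, plus strand): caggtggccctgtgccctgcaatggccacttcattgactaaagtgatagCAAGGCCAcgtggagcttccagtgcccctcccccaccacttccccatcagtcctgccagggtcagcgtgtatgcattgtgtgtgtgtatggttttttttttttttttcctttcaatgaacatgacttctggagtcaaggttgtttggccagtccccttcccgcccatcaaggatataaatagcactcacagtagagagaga
The motif in capitals is CAAGGNCA, the core bound by LRH-1 (Nr5a2), a nuclear receptor known to drive bile acid synthesis genes. It lay 60 to 53 bases before the start of Cyp8b1, as CAAGGGCA, and 201 to 194 bases before that of Nr0b2, as CAAGGCCA, on the gene's own strand both times. Of 32851 RefSeq windows of 250 bases, searched on both strands, 5.53% held it. The D-box TTANGTAA, read by the clock factor Dbp, was in 2.06% of all windows, and an inverted repeat of GGTCA and TGACC around any 1 base, an FXR element, in 0.0335%. Neither run of letters was in the windows of these 6 genes. The FXR search took exact letters only and matched 11 of all windows, so it could not tell these 6 genes from others. Near matches were not searched. A match is a run of letters and not a measured binding site.

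ENU was followed by lower Cyp27a1 in both genotypes and by lower Slc10a1 in Tert-/- livers. Among the 10 genes, 2 fell and 0 rose in Tert-/- livers (limma, adjusted p below 0.05 over all tested genes), where 8.13% of all tested genes rose and 1.45% fell. In WT livers 1 fell and 0 rose, where 0.748% of all genes rose and 0.249% fell. The median log2 difference of the 10 genes was -0.31 in Tert-/- livers and -0.25 in WT livers, while that of all tested genes was 0.24 in Tert-/- livers and 0.10 in WT livers. With both genotypes averaged, 3 fell (Cyp27a1, Slc10a1 and Abcb11) and 1 rose (Nr1h4), where 11.3% of all genes rose and 2.73% fell. Groups without overlap gave 3 lower and 1 higher gene in Tert-/- livers, beside 6.35% and 24.5% of all genes, and 3 lower and 1 higher in WT livers, beside 8.33% and 27.0%. Fewer of all genes were higher once libraries were put on a common median: of the calls in Tert-/- livers 1011 were higher and 180 lower, against 518 and 350 after median-ratio rescaling, and in WT livers 93 and 31, against 68 and 53. Without Tert-/- saline replicate 2, 4 bile acid genes fell in Tert-/- livers, where 1608 of all tested genes then rose and 522 fell. In WT livers 2 fell and 1 rose without it, where 1063 of all tested genes then rose and 261 fell.

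**Figure D2:**
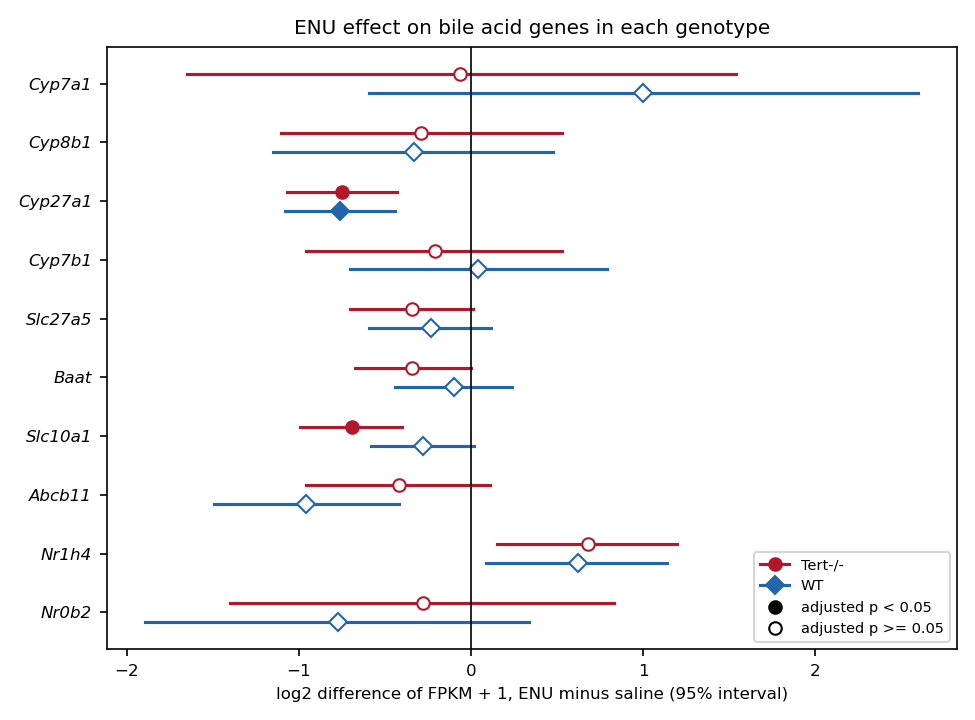
Difference of log2(FPKM + 1), ENU minus saline, for each bile acid gene, with Tert-/- above WT; lines are 95% intervals and filled symbols mark an adjusted p below 0.05. Cyp27a1 lay at -0.75 in Tert-/- and -0.76 in WT livers, and Slc10a1 at -0.69 in Tert-/- and -0.28 in WT livers.

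Of the enzymes of the alternative route, Cyp27a1 (ENSMUSG00000026170, chr1:74713574-74737892 in mm10) is the mitochondrial sterol hydroxylase at its start. It was at 314, 299 and 353 FPKM in Tert-/- ENU livers, against 520, 587 and 520 FPKM in Tert-/- saline livers. In WT livers it was at 326, 259 and 276 FPKM after ENU, against 492, 429 and 540 FPKM after saline. All 6 ENU libraries were below all 6 saline libraries. The log2 difference was -0.75 in Tert-/- livers (SE 0.15, 95% interval -1.07 to -0.43, limma adjusted p = 0.0125) and -0.76 in WT livers (SE 0.15, -1.08 to -0.44, limma adjusted p = 0.0321), and -0.76 with both averaged (limma adjusted p = 0.00128). Genotype differences were smaller: 0.16 on the log2 scale after saline (interval -0.16 to 0.48) and 0.17 after ENU (interval -0.15 to 0.49). The call in Tert-/- livers was lost without Tert-/- ENU replicate 1 (limma adjusted p = 0.0594) and when only its own groups were fitted (0.142). The call in WT livers was lost without any WT saline library, WT ENU replicates 2 or 3, or Tert-/- ENU replicates 1 or 3 (0.0529 to 0.165), and also with median-ratio rescaling (0.113), a replicate block (0.0653), a clock covariate (0.824) and voom (0.0945), while the difference stayed between -0.59 and -0.88.

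Cyp7b1 (ENSMUSG00000039519, chr3:18071950-18243338), the oxysterol hydroxylase that follows Cyp27a1, did not show that separation. Its levels were 126, 98.5 and 65.9 FPKM in Tert-/- ENU livers, against 123, 148 and 69.9 FPKM in Tert-/- saline livers. WT livers had 80.2, 104 and 67.6 FPKM after ENU, against 57.9, 72.4 and 122 FPKM after saline. All 4 groups overlapped. The log2 difference with ENU was -0.21 in Tert-/- livers (interval -0.96 to 0.53) and 0.04 in WT livers (interval -0.70 to 0.79), so a loss as large as that of Cyp27a1 lay within the interval in Tert-/- livers. The sign in WT livers turned with median-ratio rescaling, quantile normalization and voom.

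The classic route showed no called change. Cyp7a1 (ENSMUSG00000028240, chr4:6265612-6275633), its rate-limiting hydroxylase, was at 44.6, 30.8 and 67.2 FPKM in Tert-/- ENU livers, against 74.3, 11.8 and 115 FPKM in Tert-/- saline livers. It was at 23.7, 34.3 and 94.6 FPKM in WT ENU livers, against 21.2, 12.8 and 32.9 FPKM in WT saline livers. Its highest and lowest libraries, 9.78-fold apart, were both Tert-/- saline, and no group was clear of another. The log2 difference with ENU was -0.06 in Tert-/- livers (interval -1.65 to 1.54, limma adjusted p = 0.964) and 1.0 in WT livers (interval -0.59 to 2.60, limma adjusted p = 0.654). Tert-/- exceeded WT after saline by 1.14 on the log2 scale (SE 0.73, limma adjusted p = 0.368), a difference that became 2.10 and passed without Tert-/- saline replicate 2 (limma adjusted p = 0.0321), where Cyp7a1 was at 11.8 FPKM. The sign of the ENU difference in Tert-/- livers turned with a clock covariate (0.164) and with single libraries left out (-1.016 to 0.576).

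Cyp8b1 (ENSMUSG00000050445, chr9:121914356-121916305) is the hydroxylase that sets the share of cholic acid. Levels were 87.8, 43.7 and 97.5 FPKM in Tert-/- ENU livers, against 68.0, 140 and 72.2 FPKM in Tert-/- saline livers. In WT livers they were 80.6, 91.4 and 49.5 FPKM after ENU, against 79.4, 71.9 and 129 FPKM after saline. The groups overlapped throughout. Log2 differences with ENU were -0.29 in Tert-/- livers (interval -1.10 to 0.53, limma adjusted p = 0.616) and -0.33 in WT livers (interval -1.15 to 0.48, limma adjusted p = 0.798), and -0.03 between Tert-/- and WT after saline (interval -0.85 to 0.78). The last one turned sign with median-ratio rescaling (0.188) and voom (0.202). Cyp8b1 and Cyp7a1 ranked the libraries in the same order within Tert-/- ENU and within WT saline livers. They did not within Tert-/- saline or WT ENU livers. The ratio of Cyp8b1 to Cyp7a1 FPKM was 1.97, 1.42 and 1.45 in Tert-/- ENU livers, against 0.915, 11.9 and 0.627 in Tert-/- saline livers. It was 3.40, 2.67 and 0.523 in WT ENU livers, against 3.75, 5.63 and 3.93 in WT saline livers. Tert-/- saline replicate 2, with a ratio of 11.9, had both the lowest Cyp7a1 and the highest Cyp8b1 of the 12 libraries.

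The conjugation genes were abundant. Slc27a5 (ENSMUSG00000030382, chr7:12988346-12998192), the bile acyl-CoA synthetase, was at 807, 611 and 863 FPKM in Tert-/- ENU livers, against 880, 970 and 1015 FPKM in Tert-/- saline livers. In WT livers it was at 766, 758 and 799 FPKM after ENU, against 945, 788 and 1009 FPKM after saline. ENU and saline did not overlap in Tert-/- livers and overlapped in WT livers. The log2 difference was -0.34 in Tert-/- livers (SE 0.16, limma adjusted p = 0.183) and -0.23 in WT livers (SE 0.16, limma adjusted p = 0.631). Averaged over genotypes, Slc27a5 was called lower with voom on the recovered reads and under no other setting run. Baat (ENSMUSG00000039653, chr4:49489422-49506557), which joins the activated bile acid to taurine or glycine, was at 134, 118 and 145 FPKM in Tert-/- ENU livers, against 188, 139 and 176 FPKM in Tert-/- saline livers. WT livers had 125, 127 and 132 FPKM after ENU, against 120, 141 and 153 FPKM after saline. Baat overlapped between treatments in both genotypes. Its log2 difference in Tert-/- livers was -0.34 (SE 0.15, limma adjusted p = 0.172), and it passed with median-ratio rescaling (-0.639, 0.026), with voom (-0.645, 0.0279) and without Tert-/- saline replicate 2 (-0.464, 0.0262). In WT livers it was -0.10 (SE 0.15, limma adjusted p = 0.865).

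Slc10a1 (ENSMUSG00000021135, chr12:80953185-80968079) encodes NTCP, the sodium-coupled carrier that takes bile acids up from blood. It differed both with treatment and with genotype. Levels were 213, 198 and 244 FPKM in Tert-/- ENU livers, against 365, 313 and 383 FPKM in Tert-/- saline livers. In WT livers they were 167, 192 and 188 FPKM after ENU, against 214, 219 and 229 FPKM after saline. ENU libraries were below saline libraries in each genotype, and Tert-/- libraries were above WT libraries in each treatment. The log2 difference with ENU was -0.69 in Tert-/- livers (SE 0.14, interval -0.99 to -0.40, limma adjusted p = 0.0129) and -0.28 in WT livers (SE 0.14, interval -0.58 to 0.02, limma adjusted p = 0.437). The difference between these 2 effects was -0.42 (SE 0.19, interval -0.84 to 0.01) and did not pass (limma adjusted p = 0.734), so the ENU effect was not shown to differ by genotype. Tert-/- livers exceeded WT livers after saline by 0.67 (SE 0.14, interval 0.37 to 0.97, limma adjusted p = 0.026), and after ENU by 0.26 (SE 0.14, interval -0.04 to 0.55). The ENU call in Tert-/- livers was lost without Tert-/- ENU replicate 1 (limma adjusted p = 0.0626), with a clock covariate (0.0523) and when only its own groups were fitted (0.17). The saline call was lost without WT saline replicates 1, 2 or 3 (0.12, 0.0983 and 0.073), without Tert-/- ENU replicate 1 (0.0503), with quantile normalization (0.0812), with a clock covariate (1.0) and when only its own groups were fitted (0.198).

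Abcb11 (ENSMUSG00000027048, chr2:69238282-69342616) encodes BSEP, the pump that exports bile acids into bile. Levels were 95.8, 96.2 and 86.7 FPKM in Tert-/- ENU livers, against 126, 84.8 and 182 FPKM in Tert-/- saline livers. In WT livers they were 125, 107 and 84.8 FPKM after ENU, against 182, 194 and 240 FPKM after saline. WT saline livers were the high group: all 3 were above every library of the other groups, the lowest of them by less than 1 FPKM over Tert-/- saline replicate 3. The log2 difference with ENU was -0.42 in Tert-/- livers (SE 0.25, limma adjusted p = 0.266) and -0.96 in WT livers (SE 0.25, interval -1.49 to -0.42, limma adjusted p = 0.107). Averaged over genotypes, Abcb11 fell by 0.69 on the log2 scale (SE 0.17, limma adjusted p = 0.0237). Tert-/- against WT after saline gave -0.70 (SE 0.25, interval -1.24 to -0.17, limma adjusted p = 0.113). The averaged call was lost without WT saline replicates 2 or 3, WT ENU replicates 2 or 3, or Tert-/- ENU replicates 1 or 3 (0.0514 to 0.0611), without the filter (0.0552) and with a clock covariate (0.076). The WT difference passed with median-ratio rescaling (0.0274), voom (0.0266), its own groups alone (0.0217) and without Tert-/- saline replicates 2 (0.00965) or 3 (0.0389).

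Nr1h4 (ENSMUSG00000047638, chr10:89454234-89533585), the gene of the bile acid receptor FXR, was the bile acid gene with higher levels after ENU in both genotypes. It was at 95, 83.7 and 97.0 FPKM in Tert-/- ENU livers, against 76.2, 37.1 and 65.3 FPKM in Tert-/- saline livers. In WT livers it was at 68.5, 71.2 and 85.1 FPKM after ENU, against 48.7, 39.8 and 58.3 FPKM after saline. ENU and saline did not overlap in either genotype. The log2 difference was 0.68 in Tert-/- livers (SE 0.24, interval 0.15 to 1.20, limma adjusted p = 0.0917) and 0.62 in WT livers (SE 0.24, interval 0.09 to 1.14, limma adjusted p = 0.304). Averaged over genotypes, Nr1h4 rose by 0.65 (SE 0.17, limma adjusted p = 0.0277). That call was lost without WT saline replicates 1 or 2, WT ENU replicates 2 or 3, or Tert-/- ENU replicates 1 or 3 (0.057 to 0.0749), without the filter (0.0615) and with a clock covariate (0.067). After saline, the difference between Tert-/- and WT livers was 0.23, and it became 0.536 and passed without Tert-/- saline replicate 2 (limma adjusted p = 0.0497).

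Nr0b2 (ENSMUSG00000037583, chr4:133553376-133556536), the FXR target that encodes SHP, showed no called change. Levels were 21.7, 24.1 and 39.2 FPKM in Tert-/- ENU livers, against 23.0, 45.1 and 36.3 FPKM in Tert-/- saline livers. In WT livers they were 60.8, 27.7 and 12.8 FPKM after ENU, against 60.5, 26.1 and 72.6 FPKM after saline. All 4 groups overlapped. The log2 difference with ENU was -0.28 in Tert-/- livers (interval -1.40 to 0.83, limma adjusted p = 0.726) and -0.77 in WT livers (interval -1.89 to 0.34, limma adjusted p = 0.598). Between Tert-/- and WT livers it was -0.52 after saline (interval -1.64 to 0.59). With a clock covariate the last 2 changed sign, to 0.331 and 1.466, and neither passed. In Tert-/- livers the Nr0b2 interval for ENU held the Nr1h4 difference of 0.68, so a rise of that size was not excluded. The Nr1h4 difference of 0.62 in WT livers lay above the Nr0b2 interval there, but the Nr1h4 interval (0.09 to 1.14) overlapped that interval. The 2 genes were not tested against each other.

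The Tert-/- genotype was set against WT within each treatment. After saline 1 of the 10 genes was called higher, Slc10a1, and 0 lower, where 0.748% of all tested genes were called higher and 4.26% lower. The median over the 10 genes was 0.20 and over all tested genes -0.19. Groups without overlap gave 1 higher gene (Slc10a1) and 1 lower gene (Abcb11), beside 6.42% and 19.5% of all genes. Without Tert-/- saline replicate 2 the calls were Cyp7a1, Nr1h4 and Slc10a1, all higher, where 582 of all tested genes were then higher and 1020 lower, against 93 and 530 with it. After ENU 0 of the 10 genes were called, as of all genes (0.0%), and 0 had an unadjusted limma p below 0.05, against 541 of all genes. Their log2 differences lay between -0.17 (Abcb11) and 0.29 (Nr1h4), and Slc10a1 was the only one of them without overlap, where 5.56% of all genes were higher and 10.4% lower without overlap. With both treatments averaged, 1 gene was called higher, Slc10a1 (0.46, SE 0.10, limma adjusted p = 0.0327), where 0.257% of all genes were higher and 3.39% lower. That call was lost without any one of 8 libraries (each WT saline and Tert-/- ENU library, and WT ENU replicates 1 or 2; 0.0587 to 0.102), with quantile normalization (0.0959), without the filter (0.0501) and with a clock covariate (1.0).

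The design also asks whether the ENU effect differed by genotype. Of the 10 genes 0 passed that test, as of all genes (0.0%), and 0 had an unadjusted limma p below 0.05, against 844 of all genes. Estimates ran from -1.06 for Cyp7a1 (SE 1.03) to 0.54 for Abcb11 (SE 0.35). These standard errors leave room for sizeable differences in Cyp7a1 in either direction.

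Clock genes differed between the same groups. Dbp and Arntl are expressed in antiphase over the day in liver. Their log2 ratio, Dbp over Arntl, was 3.05 to 5.186 in Tert-/- ENU livers, 5.256 to 6.05 in Tert-/- saline livers, -0.521 to 4.173 in WT ENU livers and -2.117 to 0.136 in WT saline livers. After saline 2 of 10 listed clock genes of the Dbp arm were called higher in Tert-/- than WT livers, Dbp (4.26) and Ciart (3.40), and 2 of 5 of the Arntl arm lower, Arntl (-2.68) and Npas2 (-2.22; limma adjusted p = 0.0154 to 0.0225 over the 4). All 4 calls were lost without WT saline replicate 1 (0.084 to 0.11), those of Ciart and Npas2 also without replicates 2 or 3, and those of Dbp and Arntl without replicate 3 (0.051 to 0.073). No source used here gives sampling times, and after saline genotype and this ratio cannot be told apart. Of the 4 libraries with a ratio above 5, Tert-/- ENU replicate 3 had 67.2 FPKM of Cyp7a1. Tert-/- saline replicates 1 and 3 had 74.3 and 115 FPKM, while Tert-/- saline replicate 2 had 11.8 FPKM. WT ENU replicates 2 and 3, with close ratios of 4.148 and 4.173, had 34.3 and 94.6 FPKM of Cyp7a1. WT saline replicates 1 and 3 and WT ENU replicate 1, with the 3 lowest ratios, had 60.5, 72.6 and 60.8 FPKM of Nr0b2, against 12.8 to 45.1 FPKM in the other 9 libraries. WT saline replicate 2, with the next lowest ratio (0.136), had 26.1 FPKM. With the ratio as a covariate, 0 of the 10 genes were called between genotypes, 0 for ENU in WT livers, 1 for ENU in Tert-/- livers (Cyp27a1) and 2 for ENU averaged over genotypes (Cyp27a1 and Slc10a1). Of all tested genes, that covariate left 0 called between genotypes, 28 for ENU in WT livers, 356 for ENU in Tert-/- livers and 939 for ENU averaged over genotypes.

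**Figure D3:**
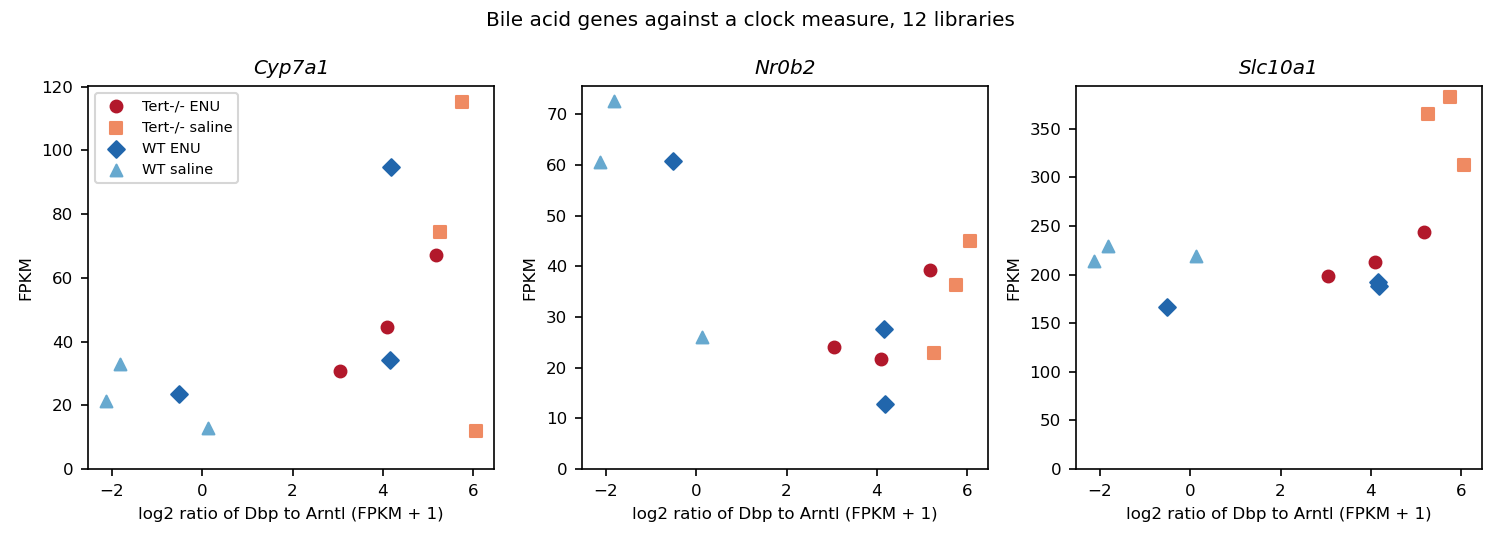
FPKM of Cyp7a1, Nr0b2 and Slc10a1 in each of the 12 libraries against the log2 ratio of Dbp to Arntl. The Tert-/- saline libraries sit at ratios of 5.256 to 6.05 and the WT saline libraries at -2.117 to 0.136. Nr0b2 is at 60.5 to 72.6 FPKM in the 3 libraries with the lowest ratios, and at 26.1 FPKM in the next, WT saline replicate 2.

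Other genes of the pathway were counted from lists of synthesis enzymes, transporters and regulators. Of 16 other synthesis enzymes 14 were tested. Hsd3b7 was listed at 0 in every library, and Ch25h did not exceed 0.174 FPKM. Whether the 0 of Hsd3b7 came from absent RNA or from the counting was not tested. In Tert-/- livers 3 of the 14 rose with ENU and 0 fell, where 8.13% of all tested genes rose (list median 0.18, beside 0.24 for all tested genes). In WT livers 0 were called, with 5 at an unadjusted limma p below 0.05, against 1574 of 12434 tested genes (median 0.21, beside 0.10). The 3 were Acox2, the peroxisomal branched-chain oxidase (257 ± 45.3 FPKM after ENU, against 143 ± 36.0 after saline; log2 0.86), Hsd17b4, the peroxisomal D-bifunctional protein (575 ± 27.1 against 344 ± 107; log2 0.79), and Acot8, a peroxisomal thioesterase (24.3 ± 3.58 against 13.8 ± 0.62; log2 0.77; SD, n = 3 throughout). Their limma adjusted p-values were 0.0185, 0.0411 and 0.0136. None of the 3 passed with median-ratio rescaling (0.0592, 0.082 and 0.132), voom (0.0588, 0.0753 and 0.121), only their own groups (0.183, 0.226 and 0.157) or a clock covariate (0.0629, 0.11 and 0.0536). Quantile normalization also ended the calls of Acot8 (0.09) and Hsd17b4 (0.0579), and Hsd17b4 was lost without the filter (0.0922) and with the replicate block (0.0508). Acox2 and Acot8 were also lost without Tert-/- ENU replicates 1 (0.0586 and 0.0542) or 2 (0.0687 and 0.0566), and Hsd17b4 without any one of 9 libraries, up to 0.136. Averaged over genotypes, 4 of the 14 enzymes were higher after ENU and 1 lower, where 11.3% of all tested genes were higher and 2.73% lower. Beside the same 3 (Acox2 0.66, Acot8 0.59 and Hsd17b4 0.58), these were Cyp2a12 (0.62, SE 0.13, limma adjusted p = 0.013) and, lower, Cyp2c70 (-0.60, SE 0.17, limma adjusted p = 0.0375), a pair named after their values were seen. Cyp2c70 makes muricholic acids in mice. Its call was lost without any one of 8 libraries (up to 0.0968), without the filter (0.0849), with quantile normalization (0.0533) and with a clock covariate (0.0874). Of the higher averaged calls, those of Cyp2a12 (0.119), Acot8 (0.0814) and Hsd17b4 (0.0568) did not pass with median-ratio rescaling. Voom also ended those of Cyp2a12 (0.118) and Acot8 (0.0737), and quantile normalization that of Acot8 (0.0555). That of Hsd17b4 was lost without the filter (0.0645), with a clock covariate (0.0649) and without any one of 7 libraries, up to 0.078.

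Of 16 other transporters and related genes 13 were tested, and Abcc4, Slc51a and Slc51b stayed below the filter. In Tert-/- livers 2 rose with ENU and 0 fell, where 8.13% of all tested genes rose and 1.45% fell (median 0.30, beside 0.24 for all tested genes). In WT livers 1 rose and 0 fell, where 0.748% of all tested genes rose and 0.249% fell (median 0.25, beside 0.10). Ephx1, the microsomal epoxide hydrolase, which has been linked to sodium-coupled bile acid uptake, was at 1095, 885 and 1020 FPKM in Tert-/- ENU livers, against 291, 341 and 314 FPKM in Tert-/- saline livers. In WT livers it was at 994, 937 and 1245 FPKM after ENU, against 318, 290 and 401 FPKM after saline. Every ENU library was above every saline library. It rose by 1.66 in Tert-/- livers (SE 0.17, limma adjusted p = 0.000481) and by 1.65 in WT livers (SE 0.17, limma adjusted p = 0.000433), and passed under all 20 alternatives in each. Abcb4, the canalicular phospholipid floppase, rose in Tert-/- livers (136 ± 10.4 FPKM against 70.8 ± 13.8 FPKM; SD, n = 3; log2 0.95, limma adjusted p = 0.00842), a call lost when only its own groups were fitted (0.116). In WT livers Abcb4 was at 135 ± 8.79 FPKM after ENU and 80.0 ± 12.4 FPKM after saline (log2 0.76, limma adjusted p = 0.0671). Between genotypes after saline 0 of the enzymes and 0 of the transporters were called, with 1 of each at an unadjusted limma p below 0.05, against 2917 of 12434 tested genes.

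Of 18 other regulators 15 were tested; Fgf15 was listed at 0, and Gpbar1 and Vdr did not exceed 0.0852 and 0.0922 FPKM. In Tert-/- livers 5 of the 15 rose with ENU and 0 fell, where 8.13% of all tested genes rose (median 0.56, beside 0.24 for all tested genes). In WT livers 0 were called, with 2 at an unadjusted limma p below 0.05, against 1574 of 12434 tested genes (median 0.19, beside 0.10). Fgfr4, the hepatic receptor for the ileal hormone Fgf15, was at 56.9, 54.0 and 58.7 FPKM in Tert-/- ENU livers, against 31.7, 28.4 and 30.4 FPKM in Tert-/- saline livers (log2 0.89, SE 0.18, limma adjusted p = 0.0151). WT livers had 79.7, 69.5 and 50.0 FPKM after ENU, against 93.3, 67.7 and 70.6 FPKM after saline (log2 -0.23, limma adjusted p = 0.699). Tert-/- saline livers were lowest, below all 9 other libraries. Between Tert-/- and WT livers after saline, Fgfr4 fell (-1.31, SE 0.18, limma adjusted p = 0.012) and 0 of the 15 rose, where 4.26% of all tested genes were lower and 0.748% higher (median -0.30, beside -0.19). The difference between the ENU effects of the genotypes did not pass for Fgfr4 (1.11, SE 0.26, limma adjusted p = 0.67).

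The other 4 regulators that rose in Tert-/- livers were Nr1i2 (PXR; 0.59), Rxra, the partner of FXR (0.56), Nr1i3 (CAR; 1.07) and Cebpa (0.72), at limma adjusted p-values of 0.0311, 0.0329, 0.0388 and 0.0435. Cebpa is named after its values were seen. Fgfr4 and these 4 did not pass with median-ratio rescaling (0.101, 0.33, 0.257, 0.0906 and 0.222) or voom, nor with only their own groups (0.103, 0.193, 0.22, 0.205 and 0.197) or a clock covariate (0.0537, 0.0899, 0.0884, 0.0553 and 0.0634). Quantile normalization also ended the calls of Nr1i2 (0.106) and Nr1i3 (0.0776), leaving out the filter those of Nr1i3 (0.0929) and Cebpa (0.0913), and the replicate block those of Rxra (0.0559) and Cebpa (0.0701). Fgfr4 was also lost without Tert-/- ENU replicates 1 or 3 (0.0647 and 0.0591), and in the genotype comparison without WT saline replicate 1 (0.084), with only the compared groups (0.0898) and with a clock covariate (-0.73, 1.0). Nr1i2 and Rxra were each lost without any one of 6 libraries, and Nr1i3 and Cebpa of 9, up to 0.169.

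**Figure D4:**
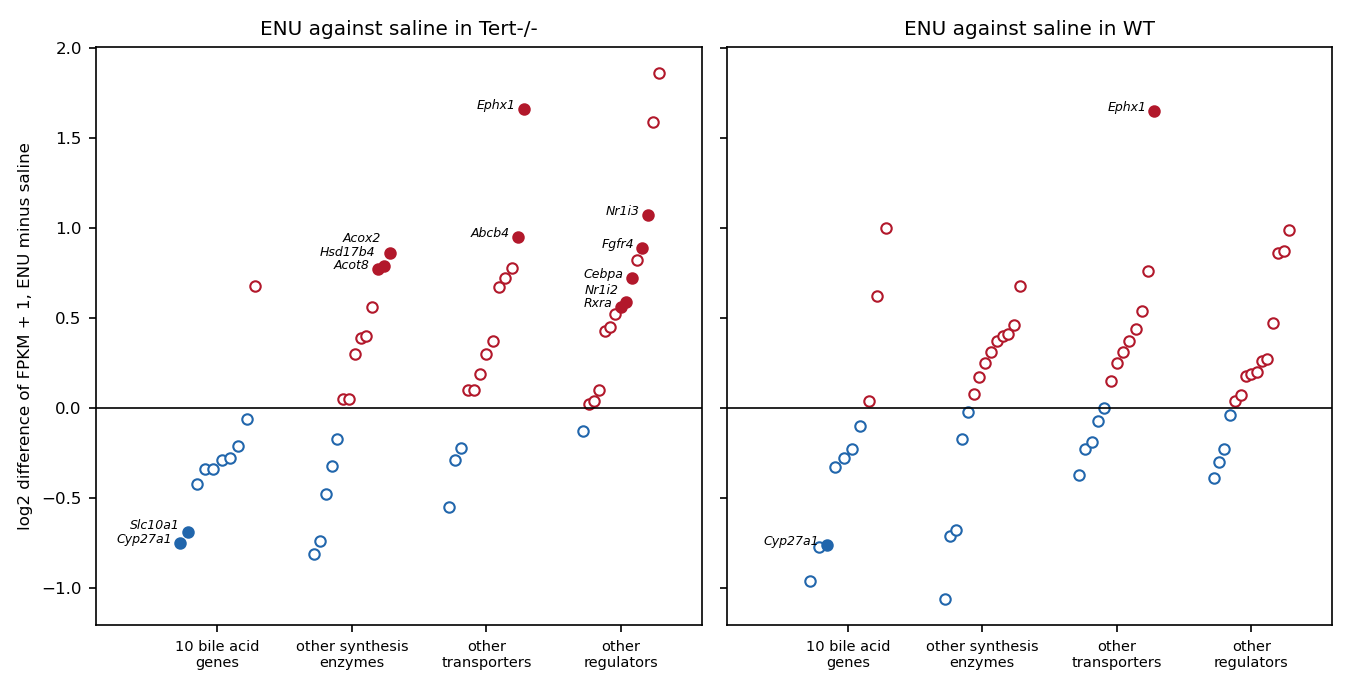
Difference of log2(FPKM + 1), ENU minus saline, for the 10 bile acid genes and the tested genes of the 3 other lists, sorted within each list, in Tert-/- livers (left) and WT livers (right); filled symbols mark an adjusted p below 0.05, red above 0 and blue below. Ephx1 is filled in both panels (1.66 in Tert-/- and 1.65 in WT livers), as is Cyp27a1 (-0.75 and -0.76).

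Across the 12 libraries, the tested genes most like each bile acid gene were ranked by the Pearson correlation of log2(FPKM + 1), as a description of libraries that share treatment, genotype and depth. No bile acid gene was among the 3 genes most like another. For a set of 10 among 12434 tested genes this says little, and correlations between the bile acid genes are not given. Nr1h4 was closest to Tsku (r = 0.984), Nceh1 (0.955) and Rsad1 (0.947). Slc10a1 was closest to Mdh1 (0.961), Chchd3 (0.961) and Prodh (0.948), and Cyp27a1 to Gm2a (0.955), Atg10 (0.941) and Sult1c2 (0.94). Cyp7a1 was closest to Zranb1 (0.938), to Slc2a2, the hepatic glucose carrier (0.932), and to Abcb1a (0.931). For Cyp8b1 the closest were Atg101 (0.954), Ccl27a (0.951) and Hyi (0.865), for Abcb11 Gas2 (0.951), Cyp2c55 (0.942) and Mug2 (0.923), and for Slc27a5 Ces2a (0.956), Inmt (0.90) and Cryl1 (0.891). Baat was closest to Adprm (0.946), Adgrf1 (0.92) and Wdr77 (0.917). The closest genes to Cyp7b1 (Yipf1, 0.887; Saysd1, 0.805; Chrna1os, 0.805) and to Nr0b2 (Dennd1a, 0.845; Rab13, 0.779; Casp1, 0.769) were less like them.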

How the data were processed

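Liver RNA was sequenced in 12 libraries, 3 in each of 4 groups taken from the sample titles. Reads were aligned to mm10 with HISAT2 and counted with HTSeq, per the submitters' processing notes; no source used here gives versions or a strand setting, so reads of overlapping opposite-strand genes cannot be told apart (Gm13613, on the other strand of Abcb11, did not exceed 0.777 FPKM). The authors deposited FPKM values, which divide by gene length and library size. Tests used log2(FPKM + 1), a scale that understates changes of low genes, for the 12434 genes that reached 1 FPKM in 3 or more libraries. A group-means model over all 12 libraries was fitted in limma 3.58.1 (R 4.3.3) with a mean-variance trend; tests were two-sided, with Benjamini-Hochberg adjustment over all tested genes within a contrast and a threshold of 0.05. The steps were tested on simulated data.

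Whole reads, within 0.01, were recovered from the FPKM values for 26523 of 26524 genes above 0, with mean transcript lengths of GENCODE (22404 genes) or the smallest length that fitted (4119 genes). No same-group pair of libraries agreed within counting noise (the lowest chi-square per gene was 41.8). Alternatives were a pseudocount of 0.1, no filter, median-ratio rescaling (each library divided by its median ratio to the others), quantile normalization, only the groups compared, a replicate block, a clock covariate (log2 Dbp minus Arntl), leaving out each library, and voom on the recovered reads, which was added after the data were seen. The 10 genes, the gene lists and the naming rule were chosen with earlier results of these data known. All 10 genes are named; of each list, up to 4 called genes per pairwise comparison with the largest moderated statistic. A gene of the list of regulators is not reported here.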

Additional observations from a re-analysis of the deposited data

How the results depend on the processing

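Counts of called bile acid genes depended on the setting. For ENU in Tert-/- livers the count was 2, with 0 when only the compared groups were fitted, 1 with a clock covariate, and 0 to 4 with single libraries left out. For ENU in WT livers it was 1, with 3 when only the compared groups were fitted, 0 with a replicate block, 0 with a clock covariate and 0 to 3 with single libraries left out; under median-ratio rescaling and voom the 1 gene was Abcb11 in place of Cyp27a1. For Tert-/- against WT after saline it was 1, with 0 under quantile normalization, with only the compared groups or with a clock covariate, and 0 to 3 with single libraries left out. For ENU averaged over genotypes it was 4, with 2 without the filter, 2 with a clock covariate, 5 with median-ratio rescaling (Baat added, lower), 6 with voom (Baat and Slc27a5 added, lower) and 2 to 5 with single libraries left out. For the genotype averaged over treatments it was 1, with 0 without the filter, 0 under quantile normalization, 0 with a clock covariate and 0 to 2 with single libraries left out. For Tert-/- against WT after ENU, and for the difference of the ENU effects, the count was 0 under every alternative run. The cause of these changes was not tested.

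Some log2 differences changed sign. With the clock covariate Cyp7a1 with ENU in Tert-/- livers became 0.164, Nr0b2 with ENU in WT livers 0.331, and, for the genotype after saline, Nr0b2 1.466, Slc27a5 -0.016, Npas2 0.226 and Dbp, from which the covariate is built, -0.388. With median-ratio rescaling, quantile normalization and voom Cyp7b1 with ENU in WT livers became -0.076, -0.079 and -0.075. Cyp8b1 for the genotype after saline became 0.188 with median-ratio rescaling and 0.202 with voom, and Slc27a5 -0.005 with quantile normalization. With single libraries left out, the ENU difference in Tert-/- livers ran from -1.016 to 0.576 for Cyp7a1, -0.504 to 0.067 for Cyp8b1 and -0.527 to 0.036 for Cyp7b1; the ENU difference of Cyp7b1 in WT livers ran from -0.186 to 0.346; and the genotype difference after saline ran from -0.363 to 0.222 for Cyp8b1 and -0.035 to 0.143 for Slc27a5.

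Over all genes, the 1191 calls for ENU in Tert-/- livers became 56 with only the compared groups, 729 without the filter, 356 with the clock covariate, 769 with voom and 266 to 2795 with single libraries left out. The 124 for ENU in WT livers became 1111 with only the compared groups, 28 with the clock covariate and 49 to 1324. The 623 for the genotype after saline became 280, 1, 0, 344 and 329 without the filter, with only the compared groups, the clock covariate, the replicate block and voom, and 4 to 1602. The 1749 for averaged ENU became 939 with the clock covariate and 862 to 3445. For averaged ENU 1409 calls were higher and 340 lower, against 725 and 634 with median-ratio rescaling and 729 and 642 with voom. The 453 for averaged genotype became 95, 215, 275, 267, 0 and 303 without the filter and with median-ratio rescaling, quantile normalization, the replicate block, the clock covariate and voom, and 8 to 1624. For Tert-/- against WT after ENU, 1 gene was called with only the compared groups and 0 otherwise.

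Same-numbered libraries of different groups correlated at -0.156 to 0.208 over 18 pairs, 7 of them above 0.1 (WT ENU with WT saline: 0.123, 0.099 and 0.165). Libraries of different groups with other numbers correlated at -0.255 to 0.237. No label says that the replicate number pairs animals, so the main fit held no block. The replicate block ended the Cyp27a1 call in WT livers (limma adjusted p = 0.0653). Array weights, also planned, did not converge and are not given. With 3 libraries per group, the intervals of Cyp7a1, Nr0b2, Cyp8b1 and Cyp7b1 were the widest of the 10 genes in each comparison.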
